A study of Homo sapiens with 4 samples.

Results

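The genes described here encode proteins of homologous recombination, of the Fanconi anaemia pathway and of the replication checkpoint. They were taken as 39 listed gene symbols, and a gene was read when at least 1 probe set of the array carried its symbol and no other. Values were found for 35 genes, through 80 of the 41091 probe sets that carry a single symbol, among 19775 genes in all. RBBP8, BRCA2, FANCA and FANCD2 are not analysed here.

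Total RNA came from HepG2, an established hepatocyte-derived cancer line, and was hybridised to the Affymetrix U133 Plus 2.0 array. The cells had been kept without serum (24 h in the design text, overnight in the protocol) and received 200 ng/ml APRIL, also known as TNFSF13, a cytokine related to tumour necrosis factor. There were 4 arrays, 1 each for 0, 2, 6 and 12 h, and the 0 h cells were untreated. With 1 array per time there are no replicates, no test and no p-value, and no untreated array at 2, 6 or 12 h is analysed here, so APRIL and time without serum cannot be told apart. Every difference below is between 2 arrays, fewer cells with a transcript and less of it per cell cannot be told apart in bulk RNA, and precision is limited by having 4 arrays.

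Homologous recombination mends DNA breaks by copying an intact sister chromatid. The ends are cut back to single strands, RPA coats them, and the BRCA proteins then help replace RPA so that the strand can pair with the matching sequence. The Fanconi anaemia proteins recognise crosslinks between DNA strands and hand the opened lesion to the same machinery, while ATR and CHEK1 hold the cell cycle until replication forks are stable. Many of these genes are transcribed mainly in late G1 and S phase by E2F factors, so they are lower in resting cells than in dividing ones. Neither division of the cells nor signal over background could be judged here.

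The deposited values are on a log2 scale, relative to each probe set's own median over the 4 arrays. They hold differences between arrays and no expression level, so neither the hepatocyte character of the cells nor the abundance of any gene could be checked. A gene's difference is the median over its probe sets of an array minus the 0 h array, and 2-fold corresponds to a log2 difference of 1. The robust SD of this difference over all genes was 0.16 at 2 h, 0.20 at 6 h and 0.24 at 12 h, and it holds noise and response together.

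Most recombination and Fanconi genes lay below 0 h on the 12 h array, and most lay below it, by smaller amounts, on the 2 h array too. Their median log2 difference was -0.10 at 2 h, 0.07 at 6 h and -0.30 at 12 h, beside 0.02, 0.05 and 0.01 for all genes. At 12 h, 27 of 35 genes (77.1%) were below 0 h, beside 47.7% of all genes, and at 2 h 26 of 35 (74.3%) were, beside 45.9% of all genes. The times differed in the size of the differences, which reached -0.36 at 2 h and -1.43 at 12 h. RAD51AP1, RPA3, BRIP1, EXO1 and CHEK1, or 5 of 35 (14.3%), were lower by 2-fold or more, beside 0.986% of all genes. At 1.5-fold the count was 12 of 35 (34.3%), beside 3.7% of all genes, and none was higher by 1.5-fold, beside 4.46% of all genes. In the order of the 12 h differences CHEK1, at -1.31, was the last past 2-fold and BARD1, at -0.97, and BRCA1, at -0.93, were the next.

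**Figure D1:**
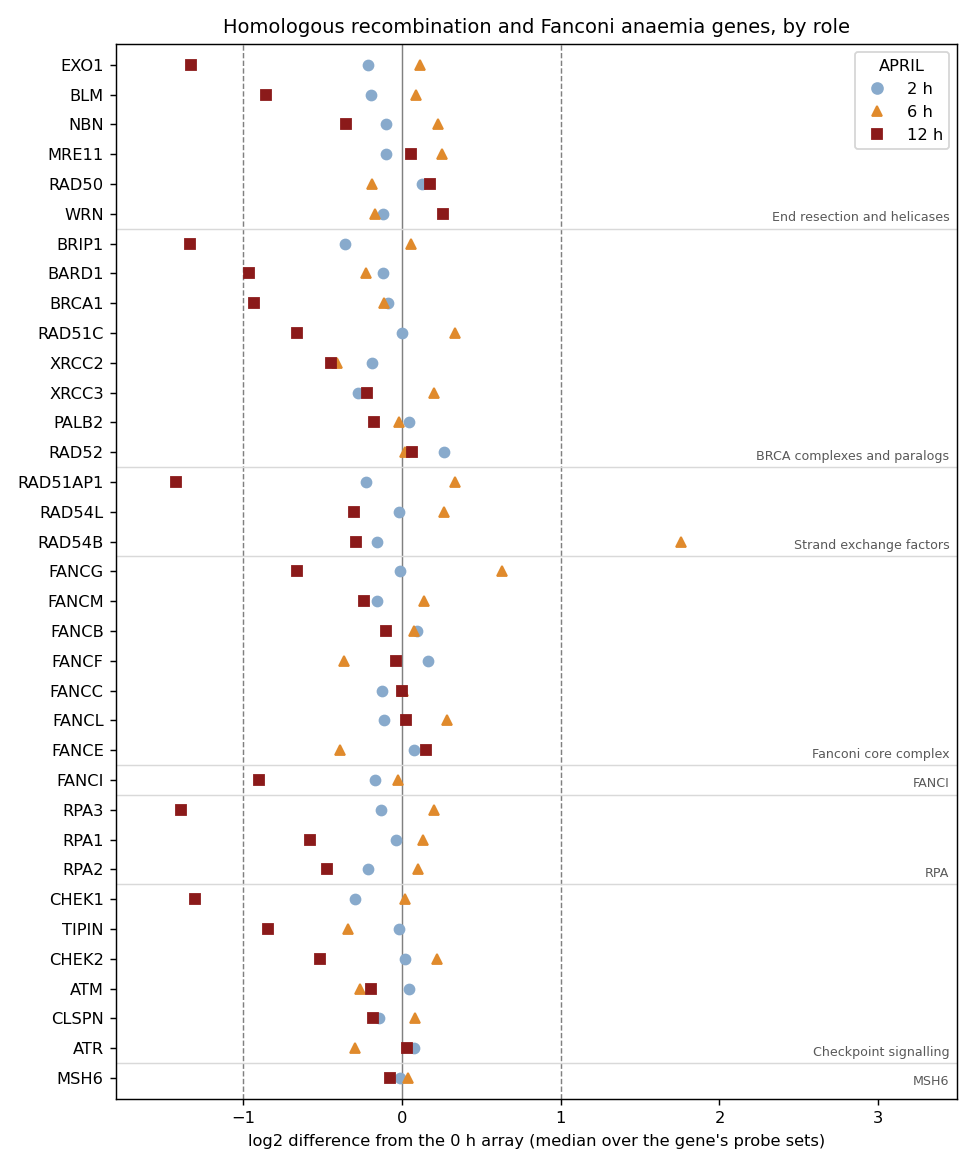
Log2 difference from the 0 h array for the 35 genes with a value, grouped by role, at 2 h (circles), 6 h (triangles) and 12 h (squares) of APRIL, with dashed lines at 2-fold. The 12 h squares reach from -1.43 to 0.26, and a single 6 h triangle, RAD54B at 1.76, lies past 2-fold.

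The scale of the 12 h array bears on these directions. The 18 probe sets of bacterial and phage spike-in RNAs, the array's hybridisation controls, had a median log2 difference of -0.35 at 12 h, with 18 of 18 below 0 h, against 0.01 at 2 h and 0.06 at 6 h. The 3′ and 5′ control probe sets of the cells' own GAPDH (-0.28 and -0.23) and ACTB (-0.26 and -0.29) were also below 0 h at 12 h. Centred on the spike-ins, the median of all genes at 12 h moved to 0.36, the median of the recombination and Fanconi genes was 0.05, and 17 of 35 were below 0 h. Only RAD51AP1, at -1.07, and RPA3, at -1.04, were then lower by 2-fold or more at 12 h (beside 0.384% of all genes), and BRIP1 at -0.98, EXO1 at -0.98 and CHEK1 at -0.95 were short of it. The count lower by 1.5-fold was 6 of 35 on that scale in place of 12, beside 1.16% of all genes, and WRN, at 0.61, was past 1.5-fold higher. The share of all genes past 1.5-fold higher on that scale is not given here, so the call for WRN is not set apart from the shift of all genes. The gap between both medians, -0.31, is the same under either scale by construction, since this centring adds the same constant to every gene's difference. Values below are on the deposited scale. On the spike-in scale 10 genes that lay below 0 h at 12 h lay above it: RAD54B, RAD54L, XRCC3, PALB2, FANCB, FANCF, FANCM, ATM, CLSPN and MSH6.

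Among the strand exchange factors, RAD51AP1, which stimulates strand invasion, had the largest 12 h difference of the 35 genes. Its 1 probe set read 0.11, -0.11, 0.45 and -1.31 at 0, 2, 6 and 12 h. The 12 h array was the low one and the 6 h array the high one, and the log2 differences were -1.43 at 12 h against 0 h (2.69-fold) and -1.76 at 12 h against 6 h (3.38-fold). RAD54L, a motor protein that acts in strand exchange, read 0.01, -0.01, 0.27 and -0.29 on the 4 arrays in order of time, a 12 h difference of -0.30 that turned to 0.05 on the spike-in scale.

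RAD54B, a close relative of RAD54L, behaved unlike the rest. Its 1 probe set with a single symbol read 0.08, -0.08, 1.84 and -0.21 at 0, 2, 6 and 12 h. The 6 h array alone was high, with a log2 difference of 1.76 (3.38-fold) at 6 h against 0 h and of -2.05 (4.13-fold) at 12 h against 6 h. At 12 h against 0 h it was at -0.29, and at 0.06 on the spike-in scale. It was the only one of the 35 genes higher by 2-fold at 6 h (2.86%, beside 0.101% of all genes). None was lower by 2-fold at 6 h, beside 0.283% of all genes. A pair of further probe sets carries the symbols of RAD54B and of FSBP together and was not used for the gene's value. The first read 0.23 at 0 h and 0.00 at 6 h, and the second 0.60 at 0 h and -0.25 at 6 h. Their 6 h differences of -0.23 and -0.85 were thus opposite to that of the probe set with the single symbol.

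In end resection EXO1 and BLM, which act in its long-range step, were the lowest at 12 h. EXO1, the exonuclease that lengthens the resected strand, read 0.11, -0.11, 0.22 and -1.22 at 0, 2, 6 and 12 h on its 1 probe set. Only its 12 h array stood low, by -1.33 against 0 h (2.51-fold). BLM, a RecQ helicase that unwinds DNA for resection and takes apart recombination intermediates, read 0.10, -0.10, 0.18 and -0.76 in order of time, a 12 h difference of -0.86.

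The MRE11, RAD50 and NBN proteins form the complex that binds broken ends and begins resection. NBN had a 12 h difference of -0.35 (SD 0.24 over 5 probe sets, all below 0 h), which was -0.000592 on the spike-in scale. RAD50 was at 0.18 (SD 0.33 over 3 probe sets, all above 0 h). MRE11 was at 0.06, with its 3 probe sets at -0.45, 0.06 and 0.22, so its probe sets gave no common direction. WRN, a RecQ helicase with a nuclease domain, was the highest of the 35 genes at 12 h, at 0.26 on 1 probe set. The spike-in scale put it at 0.61, beside a median of 0.36 for all genes. On either scale WRN stood at percentile 83.0 among all genes at 12 h.

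Of the BRCA complex genes and those grouped with them, BRIP1, BARD1 and BRCA1 were the lower ones at 12 h. BRIP1, a helicase bound to BRCA1 and also known as FANCJ, had 2 probe sets. The first read 0.26, -0.06, 0.06 and -0.76 at 0, 2, 6 and 12 h, and the second 0.20, -0.20, 0.51 and -1.45. Both were low at 12 h and differed in size, at -1.02 and -1.64 against 0 h, with a gene value of -1.33 (SD 0.44). BARD1, which pairs with BRCA1 to form a ubiquitin ligase, was at -0.97 (SD 0.18), with its 3 probe sets at -0.97, -0.98 and -0.65. BRCA1 itself was at -0.93 (SD 0.51), and its probe sets differed, at -1.30 and -0.57.

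RAD51C, XRCC2 and XRCC3 encode related proteins that act in strand pairing. RAD51C was at -0.67 at 12 h, again with unequal probe sets (-1.08 and -0.25). XRCC2 read 0.30, 0.11, -0.11 and -0.15 at 0, 2, 6 and 12 h, so its difference of -0.41 at 6 h was nearly that of -0.45 at 12 h, while the spike-in scale gave -0.49 at 6 h and -0.09 at 12 h. It rests on 1 probe set of a kind that can match several transcripts. BRCA1, RAD51C, XRCC3 and CHEK2 also rest only on probe sets of that kind. XRCC3 was at -0.22 and PALB2, which joins BRCA1 to BRCA2, at -0.18, and these turned to 0.13 and 0.17 on the spike-in scale. RAD52, a protein that anneals single strands, was at 0.06 (SD 0.079 over 4 probe sets).

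RPA is the trimer that coats single-stranded DNA in replication and repair, and its 3 subunit genes were all lower at 12 h on either scale. RPA3, the smallest subunit, read 0.07, -0.07, 0.27 and -1.33 at 0, 2, 6 and 12 h, a 12 h difference of -1.39 (2.63-fold). RPA1, the large subunit that makes most of the DNA contacts, was at -0.58 (SD 0.22 over 3 probe sets), and RPA2, the subunit phosphorylated after damage, was at -0.47. On the spike-in scale the 3 genes were at -1.04 for RPA3, -0.23 for RPA1 and -0.12 for RPA2.

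**Figure D2:**
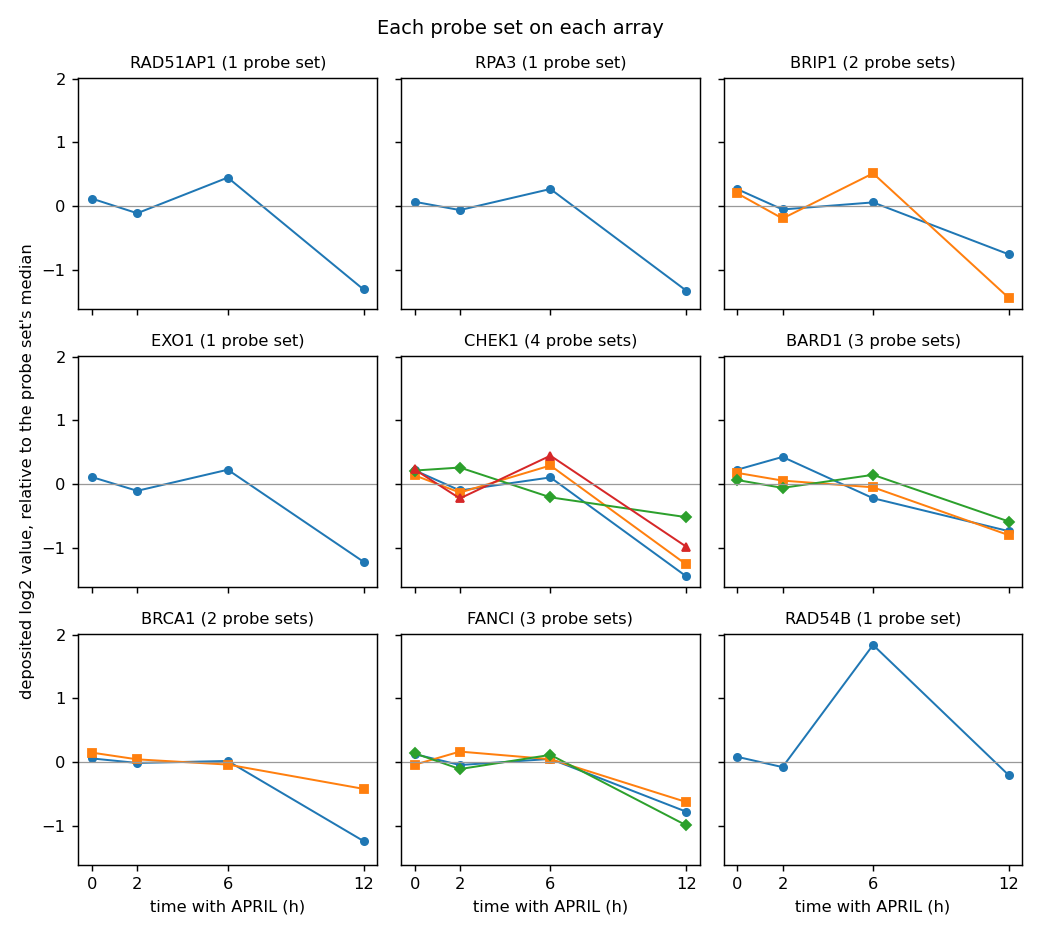
Deposited log2 values of every single-symbol probe set of 9 genes on the 4 arrays, with time in hours on the horizontal axis and 1 line per probe set. Every line has its lowest point at 12 h, and the RAD54B probe set peaks at 1.84 at 6 h.

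In the Fanconi anaemia pathway a ubiquitin ligase, the core complex, marks the FANCI and FANCD2 pair, which then gathers nucleases at the crosslink. FANCI had a 12 h difference of -0.90 (SD 0.27), with 3 probe sets at -0.59, -0.90 and -1.13. The core complex as a whole lay near 0 h, with a median of -0.04 over 7 genes, 4 below and 3 above, and only FANCG past 1.5-fold. Its median on the spike-in scale was 0.31, with FANCG alone below 0 h. FANCG, a scaffold subunit of that complex, read 0.01, -0.01, 0.64 and -0.65 at 0, 2, 6 and 12 h. It was high at 6 h and low at 12 h, with a log2 difference of -1.29 (2.45-fold) at 12 h against 6 h. Centring on the spike-ins gave differences from 0 h of 0.55 (6 h) and -0.31 (12 h), both short of 1.5-fold.

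FANCL, the catalytic subunit of the core complex, was at 0.02 at 12 h, and FANCC, a structural subunit, at 0.00 (SD 0.16 over 3 probe sets). FANCM, the DNA motor that anchors the complex, was at -0.24 and FANCB at -0.10, each with probe sets of either sign and above 0 h on the spike-in scale. FANCE and FANCF, which bridge the complex to its substrate and to FANCM, were at 0.15 and -0.04 at 12 h. Their lowest array was the 6 h one, with differences of -0.39 and -0.37.

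Of the 6 checkpoint genes, CHEK1 was past 2-fold and TIPIN past 1.5-fold at 12 h. CHEK1, the kinase activated by ATR, was read by 4 probe sets, which stood between 0.14 and 0.23 at 0 h and between -1.45 and -0.52 at 12 h without overlap. Their 12 h differences were -0.73, -1.21, -1.40 and -1.66, and the gene value was -1.31 (SD 0.39, 2.47-fold). TIPIN, which holds the replisome together at paused forks, read 0.18, 0.16, -0.16 and -0.66 in order of time, with differences of -0.34 at 6 h and -0.84 at 12 h. CHEK2, the kinase activated by ATM, was at -0.51 at 12 h.

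The sensor kinases ATR and ATM were at 0.03 and -0.20 at 12 h, with probe sets of either sign. CLSPN, the adaptor between ATR and CHEK1, was at -0.19 (SD 0.43), since 3 of its 4 probe sets lay between -0.23 and 0.06 and the other at -0.93. ATM and CLSPN were above 0 h on the spike-in scale. MSH6, which recognises mismatched bases, was at -0.07 (SD 0.047 over 4 probe sets), and above 0 h on that scale.

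In each of the 12 genes lower by 1.5-fold or more at 12 h, the step between the 6 h and 12 h arrays was larger than the difference between 6 h and 0 h, which on the spike-in scale was not so for TIPIN (-0.07 and -0.42) and BARD1 (-0.30 and -0.31). Their median log2 difference from 0 h was -0.15 at 2 h, 0.07 at 6 h and -0.95 at 12 h, and the 12 h array was the lowest of the 4 for all 12. The highest array was the 6 h one for 7 of them and the 0 h one for 5, and TIPIN at -0.34 and BARD1 at -0.23 were already below 0 h at 6 h. Set against 6 h instead of 0 h, 7 of 35 genes (20%) were lower by 2-fold or more, beside 0.885% of all genes. These were RAD54B, RAD51AP1, RPA3, CHEK1, EXO1, BRIP1 and FANCG, and RAD51C, at -0.997, was just short of it. At 1.5-fold 14 of 35 were lower, beside 3.4% of all genes, and none higher, beside 3.51%. On the spike-in scale the median of the 35 genes against 6 h was -0.03, beside 0.41 for all genes, BRIP1 at -0.95 and FANCG at -0.86 were short of 2-fold, and 7 of 35 in place of 14 were lower by 1.5-fold, beside 0.85% of all genes. None was 2-fold higher in this comparison on the deposited scale, beside 0.799% of all genes, and FANCE at 0.54, ATR at 0.44 and WRN at 0.43 were the highest. On the spike-in scale FANCE was at 0.97, ATR at 0.88, WRN at 0.87, FANCF at 0.76 and RAD50 at 0.75. These were all past 1.5-fold higher, beside the median of 0.41 for all genes. The share of all genes past 1.5-fold higher on that scale is not given here, so the calls are not set apart from the shift of all genes. Among all genes the 5 stood between percentiles 89.4 (RAD50) and 95.9 (FANCE), an order that this centring does not change.

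At 2 h none of the 35 genes reached 2-fold, beside 0.0354% of all genes higher and 0.0101% lower, and none reached 1.5-fold, beside 0.308% higher and 0.344% lower. The largest differences were -0.36 for BRIP1, -0.29 for CHEK1, -0.28 for XRCC3 and 0.26 for RAD52. The comparisons at 2, 6 and 12 h share the 0 h array, so that array's own deviation enters all 3 of them. At 6 h RAD54B and FANCG were the only 2 past 1.5-fold higher (5.71%, beside 1.15% of all genes) and none was 1.5-fold lower, beside 1.64% of all genes. Against 2 h, RAD54B was the 1 gene 2-fold higher at 6 h, beside 0.116% of all genes, and none was 2-fold lower, beside 0.329%. At 1.5-fold 2 genes were higher than at 2 h, beside 1.57% of all genes, and none lower, beside 2.07%. The 6 h median of the 35 genes on the spike-in scale was -0.0059, with 18 below 0 h. On the lower side XRCC2 was at -0.41 at 6 h, FANCE at -0.39, FANCF at -0.37 and TIPIN at -0.34. A sign of RNA quality also moved at 6 h: the 3′ control probe set of ACTB minus its 5′ one differed from 0 h by 0.38, against -0.24 at 2 h and 0.03 at 12 h, while that of GAPDH differed by 0.05 at 6 h. Its part in the 6 h values was not tested.

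Probe sets of 1 gene shared a direction more often at 12 h than at the earlier times, where differences were smaller. Of the 19 genes with several probe sets, 10 had all of them on 1 side of 0 h at 12 h, against 5 at 6 h and 6 at 2 h. The same share over all genes is not given here, so this agreement is not set apart from that of other genes. It also depends on the scale, since RAD51C, NBN and RPA1 have probe sets of either sign at 12 h on the spike-in scale. The median SD between a gene's probe sets was 0.24 at 12 h. Of the 5 genes lower by 2-fold, BRIP1 and CHEK1 have several probe sets, all lower, and RAD51AP1, RPA3 and EXO1 rest on 1 probe set each. At the level of probe sets, 11 of 80, from 8 genes, were lower by 2-fold or more at 12 h, beside 1.57% of the 41091, and none was higher, beside 1.56%. That spread covers measurement on these arrays only and says nothing of variation between cultures.

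**Figure D3:**
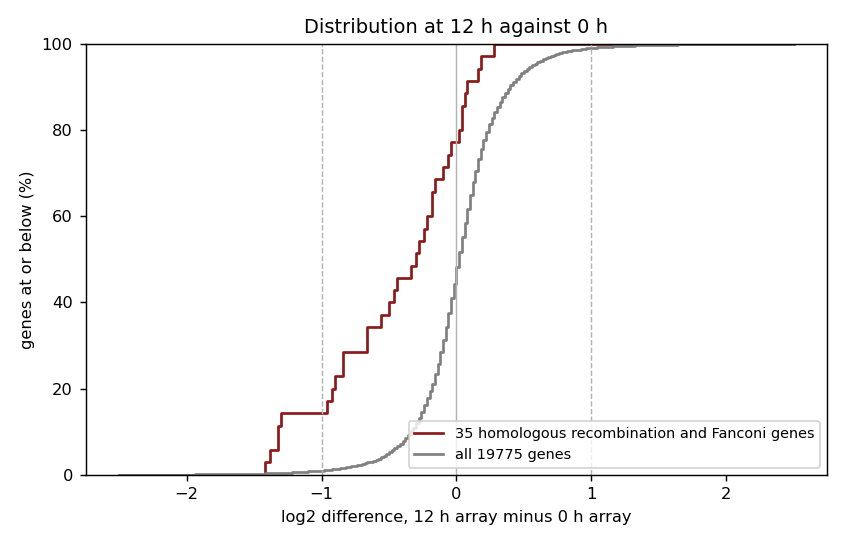
Percentage of genes at or below each log2 difference between the 12 h and 0 h arrays, for the 35 recombination and Fanconi genes (red) and for all 19775 genes (grey), with dashed lines at 2-fold. From -1.42 to 0 the red curve lies above the grey one, with 14.3% of the 35 genes and 0.986% of all genes past 2-fold lower, and it ends at 0.26.

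Other genes of the same pathways, outside the 39, had a 12 h median of -0.14 over 41 genes, 29 below and 12 above 0 h. Centred on the spike-ins 15 were below and 26 above, and 1 in place of 3 was lower by 2-fold, beside 0.384% in place of 0.986% of all genes. Lower by 2-fold or more were RMI2, a partner of BLM, at -1.61, UBE2T, the ubiquitin-conjugating enzyme of the Fanconi core complex, at -1.11, and SFR1, a recombination accessory factor, at -1.01 (SD 0.018 over 2 probe sets). UBE2T, like FANCG, was high at 6 h (0.48) before it was low at 12 h. None was 2-fold higher, beside 0.946% of all genes. In the other checkpoint genes the median was -0.07 over 16 genes, none past 2-fold, with RAD9A, part of the sliding clamp that activates ATR, at -0.68 and TIMELESS, the partner of TIPIN, at -0.67, and on the spike-in scale this median was 0.28.

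Repair pathways that do not use recombination had 12 h medians nearer to that of all genes than the 35 genes had, as did the other genes of the same pathways. Nonhomologous end joining, which rejoins ends without a template, had a median of -0.11 over 9 genes, none past 1.5-fold, with LIG4, its ligase, at 0.46 and XRCC5, the large Ku subunit, at -0.40. Mismatch repair could be read in 3 further genes, with MLH3 at 0.21 and MSH3 at 0.05. Nucleotide excision repair was at -0.06 over 11 genes, with CETN2, a centrin that also serves in centrosomes, at -1.46 as its only gene past 1.5-fold. Base excision repair was at 0.03 over 13 genes, with the glycosylases UNG at -0.93 and NEIL3 at -0.91.

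The replisome list had the lowest 12 h median of the lists set side by side here, at -0.95 over 19 genes, 14 of them lower by 1.5-fold or more and 8 by 2-fold or more, beside 3.7% and 0.986% of all genes. MCM6, MCM2 and MCM4, subunits of the replicative helicase, were at -1.57, -1.36 and -1.30, GINS1 at -1.43, PCNA, the polymerase clamp, at -1.27, CDC45 at -1.19, LIG1 at -1.14 and RFC4 at -1.11. The 35 listed recombination and Fanconi genes thus stood, by median, between this list (-0.95) and the excision and end joining lists (-0.11 to 0.03). By median, the 41 other genes of the same pathways, at -0.14, and the other checkpoint genes, at -0.07, lay close to the end joining list. The medians hide a difference in the tails. Of the 41 genes, 7 were lower by 1.5-fold or more and 2 higher, beside 3.7% and 4.46% of all genes. Of the 16 other checkpoint genes 2 were lower and none higher, while no end joining gene passed 1.5-fold either way. On the spike-in scale the replisome median was -0.59 with 17 of 19 below 0 h. On that scale 10 were lower by 1.5-fold and 3 by 2-fold, beside 1.16% and 0.384% of all genes. The medians of end joining, mismatch, nucleotide excision and base excision repair then lay above 0 h, between 0.25 and 0.40. The difference between lists has no test here.

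**Figure D4:**
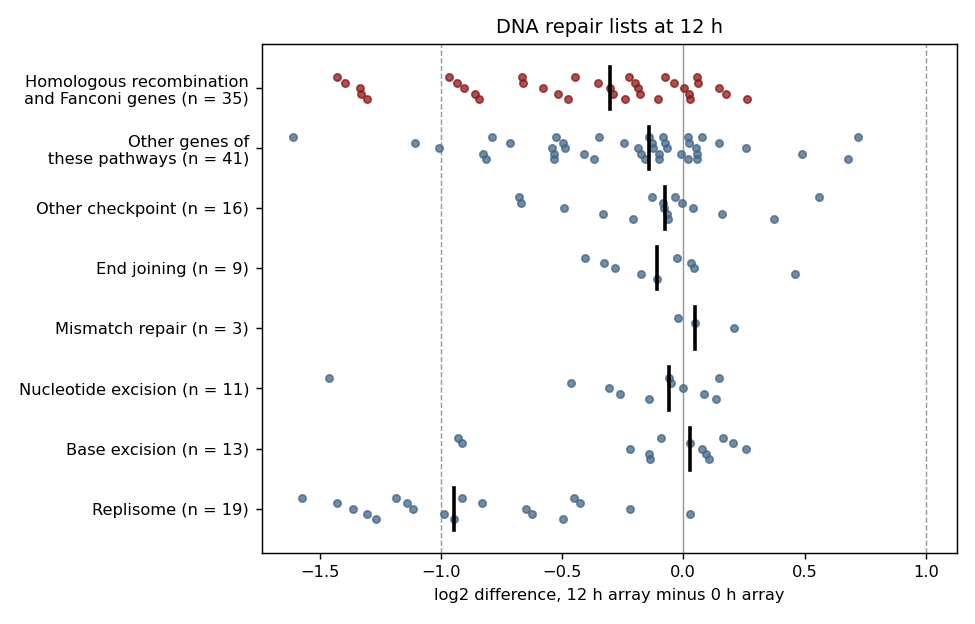
Log2 difference between the 12 h and 0 h arrays for each gene (points) of the recombination and Fanconi list and of 7 other lists, with the median of each list as a black bar and dashed lines at 2-fold. The bars lie at -0.30 for the 35 genes and at -0.95 for the replisome.

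Promoter sequences from RefSeq (GRCh38.p14) were matched by symbol for 29 of the 35 genes, over 250 bases before to 50 after each annotated start. E2F-type motifs (TTTCCCGC, TTTGGCGC, TTTCGCGC or TTTGCCGC, on either strand) were found in 6 of 29 genes (20.7%), beside 3.99% of the 27305 genes in the table. Among the 10 matched genes lower by 1.5-fold or more at 12 h, 2 held an E2F-type motif, and 4 of the other 19 did. The CCAAT box, on either strand, was found in 17 of 29 genes (58.6%), beside 39.7% of all genes in the table, in 6 of the 10 and 11 of the 19. The motif TTTGAA was found in 3 of 29 genes (10.3%), beside 18.2%. A gene with several annotated starts has more chances to match. Per start, E2F-type motifs were in 6 of 42 (14.3%), beside 3.31% of all starts in the table, and CCAAT in 50%, beside 34.6%. A match describes letters in a window and is no evidence of binding. Only these exact letters were searched, so the lack of a match is no evidence that a variant site is absent.

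The stretches below run from 120 bases before the start to 20 after it, 5′ to 3′ on the gene's strand, with E2F-type and CCAAT motifs in capitals. The first 4 are shown because they belong to genes lower by 2-fold or more at 12 h, and the next, TIPIN and FANCC, because they carry E2F-type motifs at 12 h differences of -0.84 and 0.00. In BRIP1, at chr17:61863509-61863648 (minus strand), 3 CCAAT boxes lie in reverse orientation, and in CHEK1, at chr11:125626236-125626375 (plus strand), 2 do. RAD51AP1 lies at chr12:4538770-4538909 and EXO1 at chr1:241848084-241848223 (plus strand each), TIPIN at chr15:66356666-66356805 and FANCC at chr9:95317690-95317829 (minus strand each). The TIPIN window holds the motif on both strands, overlapping. Where a gene has several annotated starts, the start whose window holds the most motifs is shown.
RAD51AP1: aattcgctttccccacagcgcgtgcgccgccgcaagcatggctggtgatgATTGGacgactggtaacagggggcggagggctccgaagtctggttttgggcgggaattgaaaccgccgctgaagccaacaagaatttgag
BRIP1: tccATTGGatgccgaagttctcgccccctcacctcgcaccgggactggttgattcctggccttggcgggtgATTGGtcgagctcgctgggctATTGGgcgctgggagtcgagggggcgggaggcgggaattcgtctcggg
EXO1: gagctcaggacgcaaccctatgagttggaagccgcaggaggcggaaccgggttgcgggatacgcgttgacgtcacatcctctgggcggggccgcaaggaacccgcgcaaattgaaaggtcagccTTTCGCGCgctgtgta
CHEK1: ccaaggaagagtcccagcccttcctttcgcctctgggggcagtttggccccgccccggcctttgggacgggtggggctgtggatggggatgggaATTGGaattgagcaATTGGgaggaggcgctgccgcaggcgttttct
TIPIN: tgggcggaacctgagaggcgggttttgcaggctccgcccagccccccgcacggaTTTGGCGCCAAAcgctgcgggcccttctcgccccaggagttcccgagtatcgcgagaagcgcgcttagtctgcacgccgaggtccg
FANCC: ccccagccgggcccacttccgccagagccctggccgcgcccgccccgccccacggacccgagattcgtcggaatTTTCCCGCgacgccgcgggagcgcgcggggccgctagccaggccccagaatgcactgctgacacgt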

How the data were processed

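The authors deposited 1 table of log2 values for 54675 probe sets on 4 arrays, and the submitters' processing notes name RMA, a method that yields 1 background-corrected, quantile-normalised value per probe set. Its version and the software that centred the values are not given in the sources used here. Each probe set has a median of 0 across the 4 columns, within 1e-06. With 4 arrays the middle pair of values therefore mirror each other around 0. Base 2 (the one RMA uses) and the reading that larger values mean more RNA are assumptions, as neither is stated.

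Probe sets were named by GEO's platform table, with symbols brought to RefSeq (GRCh38.p14) by Entrez identifier. Only probe sets with 1 symbol were used, without control probe sets. Differences between arrays were computed per probe set in Python 3.11.15 with pandas 2.3.3, and the gene value is their median. Genes at or past 2-fold were counted. The computation was tested on simulated data. Levels, and the planned protein comparison, could not be computed.

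The genes, the role groups and the other lists were chosen with earlier results of these data known. Named in full are genes past 2-fold in any comparison, the 10, 6 and 4 largest differences at 12, 6 and 2 h, and genes whose probe sets oppose each other at 12 h by 0.5 or more. In other lists the genes past 2-fold at 12 h, or else the 2 largest, are named, and any further gene was chosen after its values were seen. Alternatives were 2 other centrings, other probe sets or summaries, a 1.5-fold threshold and other reference arrays.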

Additional observations from a re-analysis of the deposited data

How the results depend on the processing

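The value at 12 h depended most on the scale of that array. Centred on the spike-in probe sets, 2 of the 35 genes (RAD51AP1 and RPA3) were lower by 2-fold at 12 h in place of 5, beside 0.384% of all genes, and their median was 0.052. BRIP1 was then at -0.98, EXO1 at -0.98 and CHEK1 at -0.95. When each gene was read by its most variable probe set, 8 genes were lower by 2-fold at 12 h, with BRCA1, FANCI and RAD51C added, beside 2.57% of all genes. At 1.5-fold, 12 genes were lower at 12 h and 2 higher at 6 h, beside 3.7% and 1.15% of all genes. With the mean of the other 3 arrays as reference the medians were 0.10 at 2 h and 0.27 at 6 h, by construction, since that mean holds the 12 h array. Against the array of the time before, the 12 h median was -0.47. Over the 26 genes whose probe sets all had 1 sign at 12 h, the 12 h median against 0 h was -0.55. Those genes were picked by the same 12 h values, and genes near 0 h are the likelier to drop out. A median further from 0 is thus favoured by construction, and the 16 genes with 1 probe set could not drop out. Over the 19 genes with several probe sets, 2 were lower by 2-fold at 12 h and 0 higher at 6 h, because the other genes past 2-fold have 1 probe set. The shares of all genes were 0.986% and 0.101%. Centring on the array median, the mean over probe sets and leaving out probe sets that can match several transcripts (names ending in _x_at or _s_at, which left 30 genes) kept the same 5 genes lower at 12 h and RAD54B higher at 6 h. BRCA1, RAD51C, XRCC2, XRCC3 and CHEK2 have no value without those probe sets. BRCA1 and RAD51C are among the 12 genes lower by 1.5-fold at 12 h. Of 507 values of single named genes under alternatives, 94 moved by more than 0.16 (log2), the robust SD over all genes at 2 h, and none past 2-fold changed sign. Many of the 507 could not move, since some alternatives only choose among genes and a gene with 1 probe set has no other summary. Of the 94, 29 came with the mean of the other 3 arrays as reference and 23 with the array of the time before. These 2 alternatives change the comparison itself, so the count does not measure robustness. No paired analysis was possible because each time has 1 array. Signal over background could not be judged without levels.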
